A study of Mus musculus with 24 samples.

Results

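The motile cilia genes described here are the protein-coding mouse genes whose symbols start with Dnah, Dnaic, Dnai, Dnali or Cfap, together with 11 genes given by name (Foxj1, Deup1, Mcidas, Ccdc39, Ccdc40, Ak7, Rsph1, Rsph4a, Spag6l, Hydin and Tekt1). The rule gave 60 of the 50686 genes in the tables, and 59 of them passed the filter on low counts among 21657 genes tested. Cfap97d1 was the member that did not pass. By role there were 3 regulators, 5 heavy chains of the outer dynein arm, 10 of the inner arm, 3 intermediate or light intermediate chains, 2 ruler proteins, 2 radial spoke proteins, 2 central pair proteins, Ak7 and Tekt1, and 31 Cfap genes of varied place in the axoneme. The rule used symbols, with no measured value.

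Motile cilia beat by means of the axoneme, a bundle of doublet microtubules around a central pair. Outer and inner dynein arms slide the doublets, nexin links and radial spokes regulate the stroke, and proteins inside the doublets (microtubule inner proteins) stabilise them. In the brain, motile cilia are known mainly from ependymal cells, which line the ventricles and move cerebrospinal fluid. Their precursors turn on the programme through Mcidas and Foxj1, and Deup1 acts in the mass production of centrioles.

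RNA was sequenced as stranded mRNA libraries from the back left brain of C57BL/6 mice. The knockout mice carried Pank1-/- together with Syn-Pank2-/- (dKO) and the controls were wild type (WT), each sampled in both sexes at day 10 and day 20. Pank1 and Pank2 encode pantothenate kinases, which open the synthesis of coenzyme A. The sources used here give neither the meaning of Syn in the genotype, nor the promoter behind it, nor the event from which days are counted. Each of the 8 groups had 3 libraries, 24 in all, and nothing says that they came from separate animals, so a p-value here covers only spread among libraries, which may be technical. Pank1 was at 6.71 to 8.12 CPM (counts per 1000000 gene counts, scaled between libraries) in dKO and 19.5 to 26.7 CPM in WT at day 20. At day 10 it was at 7.17 to 8.87 CPM in dKO and 20.99 to 24.7 CPM in WT, so the groups did not overlap at either day. Pank2 was at 38.5 to 46.3 CPM in dKO and 52.6 to 61.3 CPM in WT at day 20 (log2 change -0.43, adjusted p = 1.06e-06), and at 44.6 to 52.1 CPM in dKO and 46.3 to 56.3 CPM in WT at day 10, where the groups overlapped (-0.09, adjusted p = 0.321).

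Gene counts ran from 9191988 to 44738612 in 23 libraries, where 1 count stood for 0.0224 to 0.109 CPM. With 45964 gene counts, replicate 3 of the dKO males at day 10 was left out, so dKO at day 10 has n = 5 below. The library labelled dKO male day 10 replicate 2 stands apart in its markers. Ttr, the transthyretin gene that marks choroid plexus epithelium, was at 1.90 CPM there, against 196 to 603 CPM in the other 22 libraries. Its summed level of 19 choroid plexus markers was 254 CPM, against 524 to 1592 CPM elsewhere, with 13 of the 19 below every other day 10 library and 0 at a count of 0. Its sum of 8 ependymal markers outside the axoneme was 186 CPM, against 243 to 305 CPM in the other day 10 libraries, and all 10 proliferation markers were below every other day 10 library. It was the highest of the day 10 libraries for 45 of the 59 motile cilia genes. The share of all genes that were highest there was not counted. It was also above every other day 10 library for 30 of 46 primary cilium and transport genes, 6 of 10 microglia markers and 5 of 11 neuron markers. For 5, 0 and 2 of these it was below every other day 10 library. The part of these marker differences in the motile cilia values was not tested. The main results that use day 10 knockout libraries are therefore given with it and without it. Without it the dKO males at day 10 are 1 library, which the fit assumes to vary like the other groups.

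**Figure D1:**
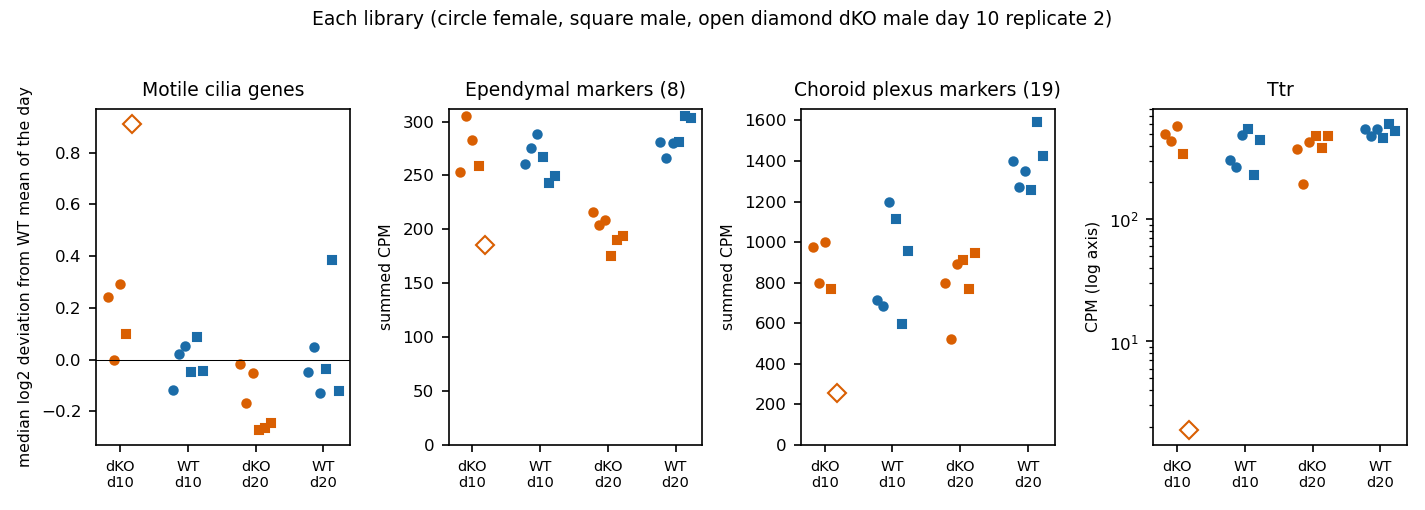
Each point is 1 library, in dKO and WT at day 10 and day 20; the axes give the median log2 deviation of the 59 motile cilia genes from the WT mean of the day, the summed CPM of 8 ependymal markers outside the axoneme and of 19 choroid plexus markers, and the CPM of Ttr on a log axis. The open diamond, dKO male day 10 replicate 2, is highest for the motile cilia genes (0.91) and lowest for the choroid plexus markers (254 CPM) and Ttr (1.90 CPM).

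Promoter sequences were available for 49 of the 60 genes, as windows from 250 bases before to 50 bases after the start (RefSeq, GRCm38.p6). Of these genes 4 had several windows, and a match in any window of a gene was counted once. RFX factors, which act with FOXJ1 in ciliated cells, bind the X-box. The spellings searched, on both strands, were chosen after several had been counted. The letters GTTGCC were found in 20 of the 49 genes (40.8%), beside 14.1% of 27025 symbols with a window. An X-box pattern, GTNNCC followed after 3 bases of any kind by GNAAC, was found in 9 of the 49 genes (18.4%), beside 2.49% of all. Such a match can overlap one of GTTGCC. A match is a description of these letters, not of binding. The letters GTAAACA, a fork-head site, were found in 4 of the 49 genes (8.16%), beside 4.05% of all. Of 48 tested genes with a window, the 20 with GTTGCC had 1 higher and 2 lower calls in dKO at day 20. Their median log2 change was -0.08. The 28 without it had 2 higher and 10 lower calls and a median of -0.37. Of all genes tested, 18.8% were called higher and 19.2% lower. The 9 with the X-box pattern had 0 higher and 1 lower calls and a median of -0.16. The 39 without it had 3 higher and 11 lower calls and a median of -0.16. The 4 with GTAAACA had 1 higher and 0 lower calls and a median of 0.08, and the 44 without it 2, 12 and -0.16. A link between these letters and the changes was not tested. The 250 bases before the start are shown for 3 genes with the X-box pattern and for Dnah5, the gene with the smallest p for the difference between days, which has none of the 3 spellings. Capitals mark the bases that match a spelling on either strand. In these 3 genes the X-box pattern matches on the opposite strand, so that the strand printed reads GTTNC, 3 bases of any kind, and GGNNAC. The windows are chr1:172520880-172521129 (plus strand) for Cfap45, chr8:110266727-110266976 (plus strand) for Hydin, chr16:44394549-44394798 (plus strand) for Cfap44 and chr15:28203516-28203765 (plus strand) for Dnah5.
Cfap45: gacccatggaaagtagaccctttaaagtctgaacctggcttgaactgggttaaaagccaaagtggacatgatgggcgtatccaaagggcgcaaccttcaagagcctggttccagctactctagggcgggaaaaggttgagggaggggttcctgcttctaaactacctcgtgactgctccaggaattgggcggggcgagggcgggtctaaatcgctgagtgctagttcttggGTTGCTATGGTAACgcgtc
Hydin: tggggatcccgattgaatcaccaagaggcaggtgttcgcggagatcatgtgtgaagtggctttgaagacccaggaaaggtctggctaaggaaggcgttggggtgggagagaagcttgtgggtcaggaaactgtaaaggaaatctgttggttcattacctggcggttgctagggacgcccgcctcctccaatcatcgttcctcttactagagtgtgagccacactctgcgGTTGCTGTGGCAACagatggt
Cfap44: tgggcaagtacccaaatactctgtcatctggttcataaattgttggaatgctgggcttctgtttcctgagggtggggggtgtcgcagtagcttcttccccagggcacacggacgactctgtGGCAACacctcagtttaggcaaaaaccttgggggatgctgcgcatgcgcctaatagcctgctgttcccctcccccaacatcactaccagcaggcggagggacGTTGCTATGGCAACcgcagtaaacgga
Dnah5: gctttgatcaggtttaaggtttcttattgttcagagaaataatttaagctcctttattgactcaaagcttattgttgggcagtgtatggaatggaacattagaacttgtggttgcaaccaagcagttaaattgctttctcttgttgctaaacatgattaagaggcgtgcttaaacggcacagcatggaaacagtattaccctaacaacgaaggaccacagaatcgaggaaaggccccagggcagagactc

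The pattern in Cfap45 lies 19 to 6 bases before the start, in Hydin 21 to 8 bases and in Cfap44 27 to 14 bases before it. Its place differed among the other genes that have it. It was near the start in Cfap206 and Cfap61, and after it in Spag6l. In Deup1, Dnah17 and Cfap298 it began 87, 159 and 188 bases before the start. Cfap45 encodes a microtubule inner protein and Hydin a central pair protein. Cfap44 belongs to a complex known, from the alga Chlamydomonas, to tether an inner arm dynein.

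Levels were compared between genes per kilobase of merged exons in WT at day 20. Cfap36 was highest at 27.0 ± 0.701 CPM per kilobase (SD, n = 6). Cfap97 followed at 6.44 ± 0.240, Cfap20 at 6.07 ± 0.159, Cfap298 at 5.79 ± 0.429 and Foxj1 at 5.51 ± 1.13 CPM per kilobase. Each of these 4 overlaps its neighbour in that order within their SDs. Cfap20 encodes a protein of the inner junction of the doublet, Cfap298 a factor in dynein arm assembly, and Foxj1 the transcription factor that governs motile ciliogenesis. The 3 lowest of the tested genes were Dnah8 at 0.0686 ± 0.0262, Mcidas at 0.0598 ± 0.0361 and Dnah17 at 0.0474 ± 0.0177 CPM per kilobase, which also overlap. Dnah8 and Dnah17 are outer arm heavy chains known mainly from sperm flagella.

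At day 20, the comparison of dKO with WT asks which motile cilia genes differ in the knockout at the later day. Outer arm heavy chains went in opposite directions: Dnah5 and Dnah8 fell and Dnah11 rose. The Cfap genes that fell included Cfap52 and Cfap57, and the inner arm heavy chain Dnah14 rose most. Foxj1, Mcidas, Deup1, Hydin and Spag6l did not pass the test. Over both sexes 4 of 59 genes were called higher (6.78%), beside 18.8% of all genes tested, and 14 were called lower (23.7%), beside 19.2% of all, with 38.0% of all genes called in either direction. The share of lower calls is thus near the background and that of higher calls is below it. The median log2 change of the 59 was -0.16, beside -0.00 for all genes tested, and 47 of 59 values were negative. In 6 genes every dKO library lay below every WT library (Cfap221, Cfap52, Cfap57, Dnah10, Dnah5 and Dnah8), beside 10.3% of all genes, and in 2 every dKO library lay above (Cfap20 and Dnah14), beside 9.79% of all.

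**Figure D2:**
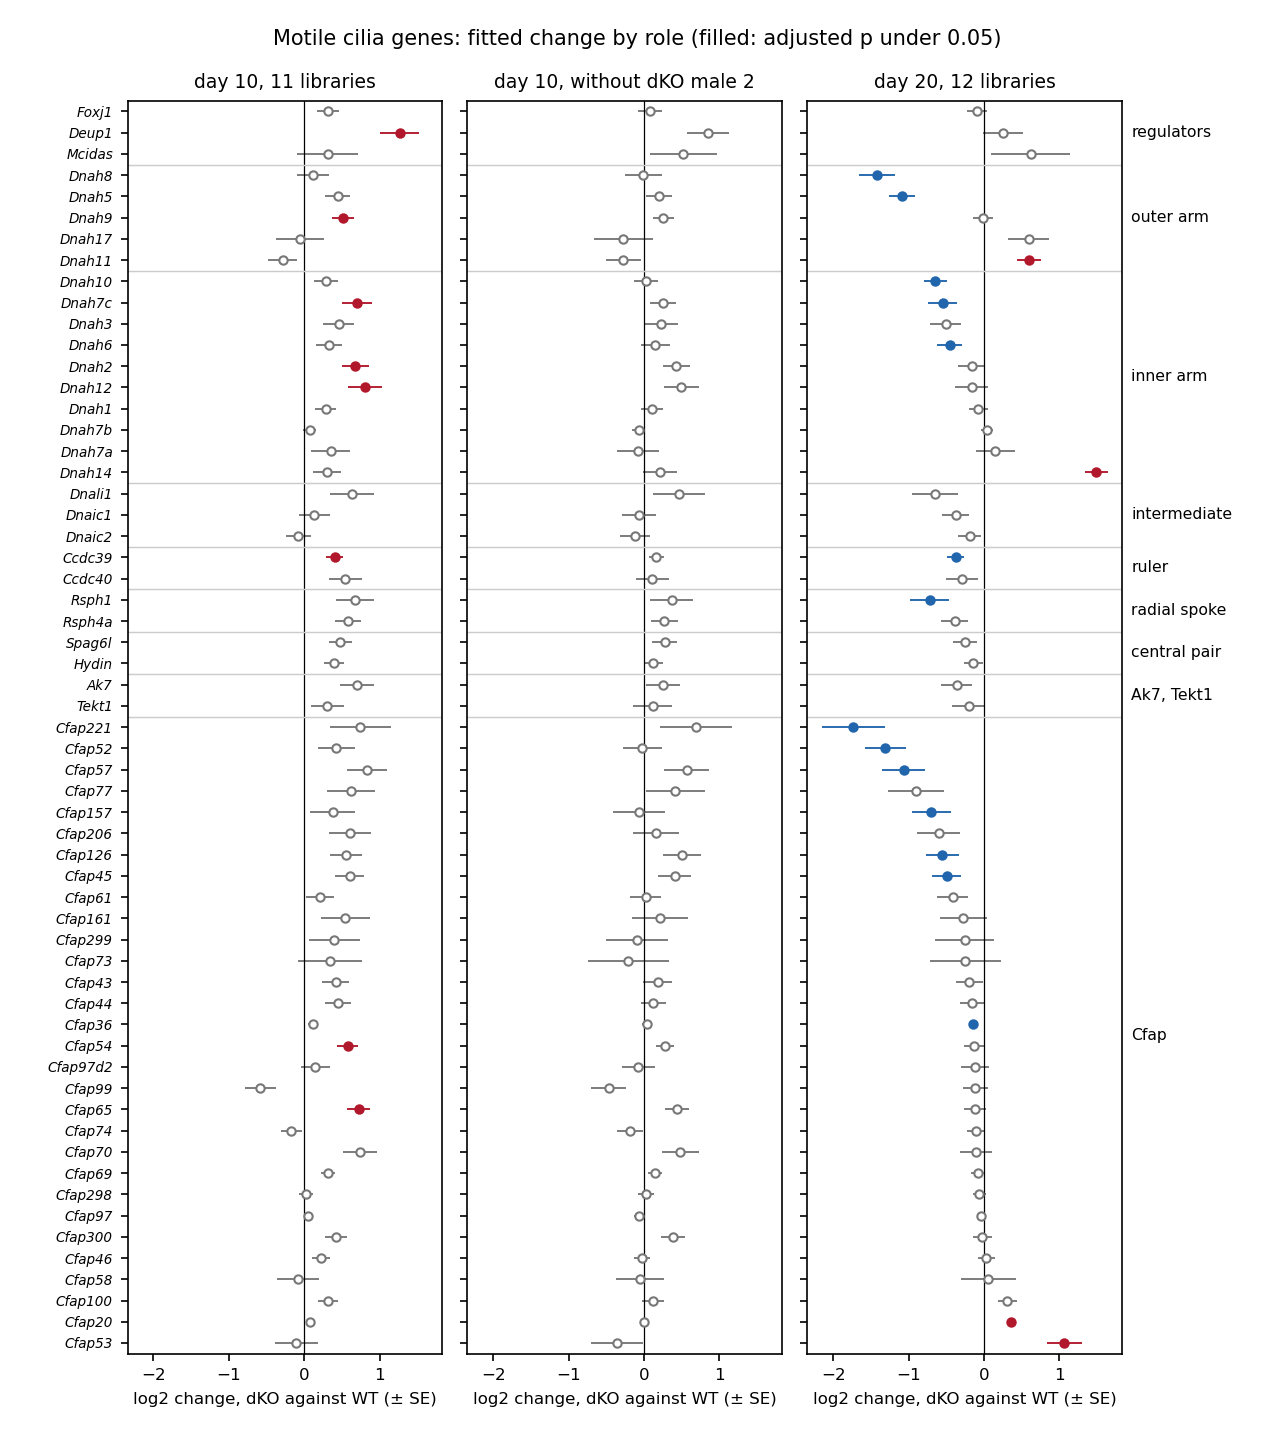
Fitted log2 change of dKO against WT with its SE for the 59 motile cilia genes, grouped by role, at day 10 with all 11 libraries, at day 10 without dKO male replicate 2, and at day 20; filled points passed an adjusted p under 0.05. At day 10 the 8 filled points lie above 0 and none remains without that library, and at day 20 there are 4 filled points above and 14 below 0.

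Among the outer arm heavy chains, Dnah5 (chromosome 15, 28203752 to 28472052, plus strand, GRCm38) encodes a chain whose loss is a known cause of ciliary dyskinesia. Its lowest, median and highest levels at day 20 were 3.12, 3.82 and 4.74 CPM in dKO libraries, against 6.00, 7.89 and 13.3 CPM in WT libraries. The groups did not overlap, and WT male replicate 2 was the highest WT library. Dnah5 averaged 3.93 ± 0.685 CPM in dKO and 8.38 ± 2.60 CPM in WT (SD, n = 6 each), a log2 change of -1.09 ± 0.17 (SE, adjusted p = 2.69e-05). Dnah8 (chromosome 17, 30624354 to 30877365, plus strand) was at 0.334, 0.736 and 0.894 CPM in dKO and 1.29, 1.58 and 3.14 CPM in WT (lowest, median and highest). These groups did not overlap either, and the log2 change was -1.42 ± 0.24 (adjusted p = 6.85e-05). Dnah11 (chromosome 12, 117877982 to 118199043, minus strand) was at 34.7, 50.8 and 56.7 CPM in dKO, against 22.4, 32.9 and 39.9 CPM in WT. Its highest WT libraries reached above the lowest dKO library, a female, and the log2 change was 0.59 ± 0.16 (adjusted p = 0.00713). Dnah9, which shares the outer arm with Dnah5, averaged 13.2 ± 1.66 CPM in dKO and 13.4 ± 2.32 CPM in WT, with a log2 change of -0.01 ± 0.13 (adjusted p = 0.951). Dnah17 was at a log2 change of 0.59 ± 0.27 (adjusted p = 0.0905), and its counts on the opposite strand were 1949% of those on its own.

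Of the 10 inner arm heavy chains 1 was called higher and 3 lower. Dnah14 (chromosome 1, 181576559 to 181815774, plus strand), grouped here by its sequence family and less studied than the others, had 3.51, 4.17 and 5.75 CPM in dKO libraries, against 1.34, 1.55 and 1.83 CPM in WT libraries at day 20. The lowest dKO library lay above the highest WT library. The log2 change was 1.49 ± 0.15 (adjusted p = 1.16e-07), and counts on the opposite strand were 360% of those on its own. Such counts were above 25% of a gene's own in 14 of the 60 genes. Dnah10 (chromosome 5, 124725085 to 124834308, plus strand) had 3.67, 4.29 and 5.53 CPM in dKO, against 5.98, 6.30 and 9.71 CPM in WT. The groups did not overlap on that strand, with a log2 change of -0.65 ± 0.15 (adjusted p = 0.00178). On the opposite strand of Dnah10, 8.33 ± 3.69 CPM were counted in dKO and 2.54 ± 0.260 CPM in WT, and in the unstranded column the Dnah10 change was 0.39 (adjusted p = 0.0152), the opposite sign. Dnah7c fell by 0.55 ± 0.19 (adjusted p = 0.0257) and Dnah6 by 0.46 ± 0.17 (adjusted p = 0.0366) on the log2 scale. Dnah7a, Dnah7b and Dnah7c are near-identical copies and the division of reads among them is uncertain. Dnah12, Dnah2, Dnah1, Dnah3, Dnah7a and Dnah7b were between -0.50 and 0.15 on the log2 scale and did not pass.

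The ruler protein Ccdc39, which with Ccdc40 sets the spacing of inner arms and spokes, had 10.6, 16.2 and 18.9 CPM in dKO, against 18.8, 19.4 and 21.8 CPM in WT at day 20. Only the highest dKO libraries reached the lowest WT library, and the dKO males were lowest, at 12.04, 15.4 and 10.6 CPM. The log2 change of Ccdc39 was -0.37 ± 0.11 (adjusted p = 0.0116). With the unstranded column it was -0.20 and did not pass, and opposite-strand counts were 158% of its own. Ccdc40 was at -0.29 ± 0.22 (adjusted p = 0.318). The radial spoke head gene Rsph1 averaged 0.972 ± 0.323 CPM in dKO and 1.61 ± 0.475 CPM in WT, with overlapping libraries and a log2 change of -0.72 ± 0.26 (adjusted p = 0.0315). Rsph4a, of the same spoke head, was at -0.39 ± 0.18 (adjusted p = 0.0848). Neither central pair gene passed, with Spag6l at -0.25 ± 0.16 (adjusted p = 0.219) and Hydin at -0.14 ± 0.13 (adjusted p = 0.413). Ak7, an adenylate kinase, was at -0.36 ± 0.21 (adjusted p = 0.186), and Tekt1, a tektin of the doublet, at -0.20 ± 0.22 (adjusted p = 0.509). The dynein intermediate chains Dnaic1 and Dnaic2 and the light intermediate chain Dnali1 were between -0.65 and -0.19, and 0 of 3 were called by edgeR with 1 at an unadjusted p under 0.05.

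Among 30 tested Cfap genes 2 were called higher and 7 lower at day 20. Cfap52 (chromosome 11, 67924806 to 67965651, minus strand), which encodes a microtubule inner protein, had 0.395, 0.485 and 0.588 CPM in dKO, against 0.868, 1.16 and 1.80 CPM in WT, with no overlap. Its log2 change was -1.31 ± 0.27 (adjusted p = 0.000618). Cfap57 (chromosome 4, 118554551 to 118620777, minus strand), known to act in inner arm assembly, had 0.329, 0.644 and 0.860 CPM in dKO, against 0.923, 1.11 and 2.30 CPM in WT. These groups were also apart, and the change was -1.06 ± 0.29 (adjusted p = 0.00531). Cfap221, a central pair gene named here after its values were seen, averaged 0.140 ± 0.0626 CPM in dKO and 0.475 ± 0.116 CPM in WT, which is a few counts per library, with a change of -1.74 ± 0.42 (adjusted p = 0.00213). Cfap157, which acts in sperm flagella, was at 0.594 ± 0.187 CPM in dKO and 1.02 ± 0.321 CPM in WT, a change of -0.70 ± 0.25 (adjusted p = 0.0334), and at -0.16 in the unstranded column. Cfap126, a microtubule inner protein, was at -0.55 ± 0.22 (adjusted p = 0.0471) and lost its call in 20 of 30 alternatives. The other lower calls were Cfap45 (-0.49 ± 0.19, adjusted p = 0.0472) and Cfap36 (-0.14 ± 0.05, adjusted p = 0.0414), named after their values were seen.

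Cfap20 (chromosome 8, 95420249 to 95434869, minus strand) had 30.6, 35.1 and 38.4 CPM in dKO, against 26.1, 27.4 and 27.6 CPM in WT at day 20. The lowest dKO library lay above the highest WT library, and the WT libraries were close together. Cfap20 averaged 34.8 ± 3.02 CPM in dKO and 27.0 ± 0.708 CPM in WT, a log2 change of 0.36 ± 0.05 (adjusted p = 2.44e-06). Cfap53 (chromosome 18, 74283090 to 74359986, plus strand), a microtubule inner protein needed for beating of embryonic node cilia, had 6.93, 2.71 and 4.72 CPM in dKO males and 1.59, 1.47 and 1.97 CPM in dKO females, against 0.967 to 1.63 CPM in WT of both sexes. The dKO males were the high libraries, and 2 of the 3 dKO females lay within the WT range. The Cfap53 change over both sexes was 1.07 ± 0.24 (adjusted p = 0.00103).

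**Figure D3:**
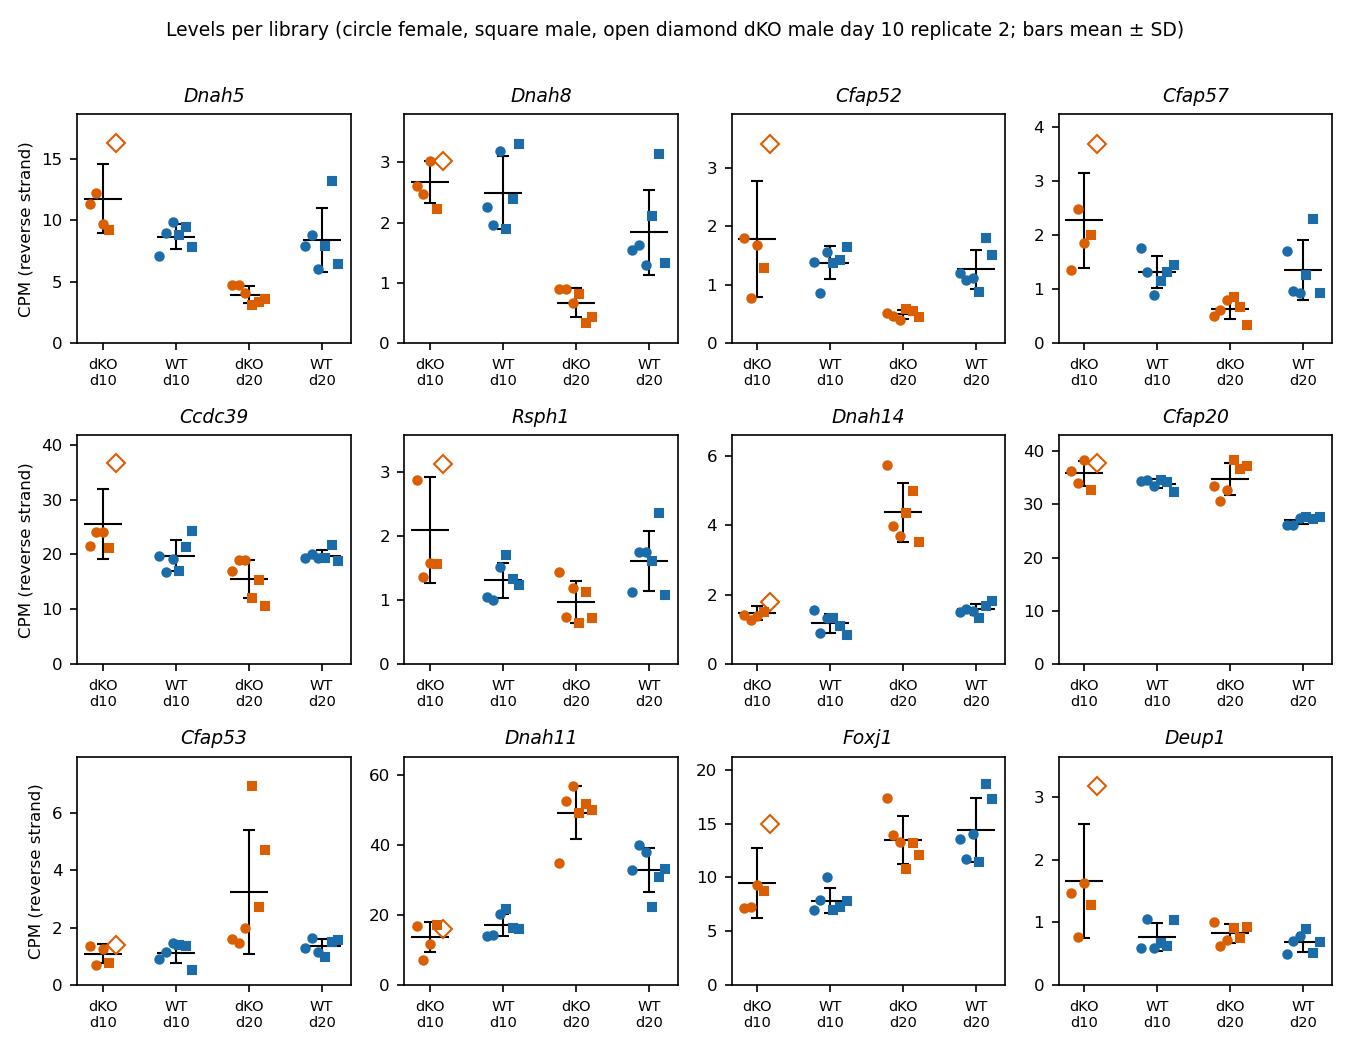
CPM of 12 motile cilia genes in each library, in dKO and WT at day 10 and day 20, with circles for females, squares for males, the open diamond for dKO male day 10 replicate 2 and bars for the mean ± SD (n = 5 in dKO at day 10 and 6 elsewhere). Dnah5 and Dnah8 are low in all 6 dKO libraries at day 20, Dnah14 and Cfap20 are high in all 6, and Cfap53 is high in the dKO males.

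None of the 3 regulators passed the test at day 20. Foxj1 (chromosome 11, 116330704 to 116335399, minus strand) had 10.8, 13.2 and 17.4 CPM in dKO, against 11.4, 13.8 and 18.7 CPM in WT at day 20, so that the groups overlapped over most of their range. Its log2 change was -0.09 ± 0.13 (adjusted p = 0.618), and a p that misses the threshold does not show that the levels are alike. Deup1 was at 0.25 ± 0.27 (adjusted p = 0.489), and Mcidas, at 0.238 ± 0.105 CPM in dKO and 0.142 ± 0.0857 CPM in WT, at 0.62 ± 0.52 (adjusted p = 0.379).

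The 14 lower calls at day 20 depended on single libraries. They numbered 8 without WT male replicate 2 and 8 without WT female replicate 1. They numbered 8 without dKO female replicate 2 and 9 without dKO male replicate 3. Shares over all genes in these refits are not given here, so a loss of calls particular to these genes is not shown. WT male replicate 2 was the highest of the day 20 libraries for 37 of the 59 genes. Its summed markers were also the highest of that day for choroid plexus (1592 CPM), meningeal fibroblasts (328 CPM), microglia (219 CPM) and oligodendrocytes (20030 CPM). The ependymal, astrocyte, neuron and proliferation sums were highest there too, the ependymal one (306 CPM) close to WT male replicate 3 (304 CPM). The endothelial sum (343 CPM) was not. The part of these marker differences in the calls was not tested. Cfap52, Cfap57, Dnah5 and Dnah8 were the lower calls present in all 31 alternatives, and Dnah14, Cfap53, Dnah11 and Cfap20 were called higher in all 31.

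In bulk tissue, fewer cells of a type and less RNA per cell cannot be told apart, and markers of several cell types differed at day 20 as well. The summed level of 8 ependymal markers outside the axoneme was 175 to 216 CPM in dKO, against 266 to 306 CPM in WT, with 0 of 8 called higher and 4 lower. S100b, a calcium-binding protein of glia and ependyma, led them at a log2 change of -0.64 ± 0.12 (adjusted p = 0.00032). The summed choroid plexus markers were at 524 to 945 CPM in dKO, against 1257 to 1592 CPM in WT, with 1 of 19 called higher and 10 lower. Among the lower was Enpp2, at a mean of 312 CPM in dKO and 706 CPM in WT, so that this gene alone holds a large part of the sum. Ttr was at 196 to 479.5 CPM in dKO and 464 to 603 CPM in WT. Markers of meningeal fibroblasts (0 of 10 higher, 8 lower), microglia (0 of 10 higher, 7 lower) and endothelium (0 of 10 higher, 7 lower) were lower too, as were proliferation genes (0 of 10 higher, 6 lower). Astrocyte markers had 4 higher and 3 lower of 13, neuron markers 0 higher and 1 lower of 11, and oligodendrocyte markers 1 higher and 3 lower of 11. The summed oligodendrocyte markers did not overlap, at 12003 to 15300 CPM in dKO and 15415 to 20030 CPM in WT. The astrocyte and neuron sums overlapped. Of all genes tested, 18.8% were called higher and 19.2% lower at that day. The part of these cell types in the motile cilia values was not tested.

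A wider set of 87 motile cilia genes in 8 lists, none of them members, was counted beside the 59. At day 20, 6 were called higher (7.14%) and 23 lower (27.4%) of 84 tested, with a median log2 change of -0.28. Of all genes tested, 18.8% were called higher and 19.2% lower. The lists that follow are small, and their counts are to be read beside these shares. Nexin link genes had 0 higher and 5 lower of 11, with Drc7, a subunit of the nexin-dynein regulatory complex, at 1.09 ± 0.402 CPM in dKO and 2.77 ± 0.695 CPM in WT (log2 change -1.37 ± 0.21, adjusted p = 2.08e-05). A list of dynein docking, light chain and further intermediate chain genes had 0 higher and 3 lower of 11. The 3 were Wdr78 at -0.84 ± 0.15 (adjusted p = 0.00017), Dnal1 and Wdr63, of which Wdr78 and Wdr63 encode intermediate chains. Dynein assembly factors had 0 higher and 2 lower of 8, with Zmynd10 at -1.14 ± 0.23 (adjusted p = 0.000481). Other genes of ependymal cilia had 0 higher and 8 lower of 20, among them Spa17 at -0.71 ± 0.15 (adjusted p = 0.000791). The list of microtubule inner proteins and tektins had 4 higher and 1 lower of 13, with Tekt4, a tektin, at 1.21 ± 0.23 (adjusted p = 0.000196). Further central pair genes had 0 higher and 2 lower of 6, namely Stk36 (-0.50 ± 0.11, adjusted p = 0.00111) and Spef1 (-0.42 ± 0.11, adjusted p = 0.00521), and further radial spoke genes 1 higher and 1 lower of 8, where Rsph10b was called higher at 0.71 ± 0.09 (adjusted p = 3.84e-06). Upstream transcription and centriole genes had 1 higher and 1 lower of 7. Gmnc, which acts upstream of Mcidas, fell by 0.94 ± 0.20 on the log2 scale (adjusted p = 0.000617), and Ccno was called higher at 0.92 ± 0.30 (adjusted p = 0.0168). Genes of the primary cilium and of transport within cilia are also used by cells without motile cilia. They had 7 higher (15.2%) and 18 lower (39.1%) of 46 and a median of -0.10. Their share of lower calls was above that of the wider motile cilia set.

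By sex at day 20, 4 of 59 genes were called in females, beside 10.4% of all genes (5.17% higher and 5.18% lower), and 19 in males, beside 34.6% of all (17.3% higher and 17.3% lower). The count in males was 12 without WT male replicate 2. That in females was 2 without any 1 of 5 libraries (dKO female replicates 1, 2 and 3, WT female replicates 1 and 2). Shares over all genes without these libraries are not given here. The 4 in females were Cfap20, Cfap52, Dnah14 and Dnah5, and all 4 were called in males as well. In Dnah5 the log2 change was -1.43 ± 0.24 in males (adjusted p = 8.51e-05) and -0.74 ± 0.23 in females (adjusted p = 0.0451). The difference between the sexes was -0.69 ± 0.33 and did not pass (adjusted p = 0.338). Cfap53 was at 1.85 ± 0.32 in males (adjusted p = 0.000109) and 0.29 ± 0.35 in females (adjusted p = 0.665), with a difference of 1.56 ± 0.47 (adjusted p = 0.128). Ccdc39 was at -0.65 ± 0.16 in males (adjusted p = 0.00335) and -0.10 ± 0.16 in females (adjusted p = 0.741), with a difference of -0.54 ± 0.22 (adjusted p = 0.258). The genotype by sex interaction at day 20 called 0 of 59 genes in edgeR, beside 0.00% of all genes, with 8 at an unadjusted p under 0.05. It called 0 in DESeq2 and limma-voom, but 4 when only the groups compared were fitted. Shares over all genes in these other fits are not given here. At day 10 it called 0 of 59, with 4 at an unadjusted p under 0.05 and 0 in DESeq2, and also 0 without dKO male replicate 2 of that day. Leaving out 1 library gave at most 1 call at day 20 (without dKO male replicate 2) and at most 6 at day 10 (without dKO male replicate 1).

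At day 10, the same comparison asks whether the genes already differ at the earlier day, and the calls depend on single libraries and on the setting. With all 11 libraries, 8 of 59 genes were called higher, beside 3.23% of all genes tested, and 0 lower, beside 1.76% of all (4.99% in either direction), with a median log2 change of 0.39. No gene had all dKO libraries below or all above the WT libraries, beside 0.947% of all genes below and 1.04% above. The 8 genes called higher were Deup1, Dnah12, Cfap65, Dnah7c, Dnah2, Cfap54, Dnah9 and Ccdc39. Without dKO male replicate 2, 0 were called in either direction, with 6 at an unadjusted p under 0.05 and a median of 0.13, beside 0.0666% of all genes (0.0355% higher and 0.0311% lower). The count of higher calls with all libraries was 16 in DESeq2, and 0 when only the groups compared were fitted. The shares over all genes in these fits are not given here. Leaving out dKO female replicate 3 or WT male replicate 1 of day 10 also gave 0 higher calls, and leaving out dKO male replicate 1, so that replicate 2 was the male left, gave 29. Among other day 10 libraries, the count was 2 without dKO female replicate 2 or WT female replicate 1. It was 3 without WT female replicate 2 and 4 without WT female replicate 3. Apart from the fit without dKO male replicate 2, shares over all genes in these refits, and in those that follow, are not given here. Leaving out 1 day 20 library, which refits filter, scaling and spread together, gave 4 (dKO female replicates 2 and 3, dKO male replicate 1, WT female replicates 1 and 3, WT male replicate 3) or 5 (dKO male replicate 3, WT female replicate 2).

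The 8 genes showed how dKO male day 10 replicate 2 lies among the other libraries. Deup1 was at 1.47, 0.769 and 1.62 CPM in dKO females and 1.28 and 3.18 CPM in dKO males at day 10, against 0.585, 0.647 and 1.06 CPM in WT (lowest, median and highest). The 3.18 CPM belong to the library that stands apart, and of the other 4 dKO libraries 1 lay within the WT range. The log2 change of Deup1 was 1.26 ± 0.26 (adjusted p = 0.0187) with it and 0.85 ± 0.28 (adjusted p = 0.291) without it. Dnah12, an inner arm heavy chain, was at 9.24, 4.53 and 8.63 CPM in dKO females and 8.23 and 16.7 CPM in dKO males, against 4.55, 5.67 and 6.93 CPM in WT. The Dnah12 change was 0.81 ± 0.23 (adjusted p = 0.0463) with the library and 0.50 ± 0.23 (adjusted p = 0.434) without it. Dnah2, also of the inner arm, was at 8.32, 9.48 and 10.1 CPM in dKO females and 8.23 and 14.8 CPM in dKO males, against 4.44, 6.60 and 8.66 CPM in WT. Its change was 0.68 ± 0.18 (adjusted p = 0.0356) with the library and 0.43 ± 0.18 (adjusted p = 0.38) without it. Cfap65 and Cfap54, both of the central apparatus, were at 0.72 and 0.58 with the library and at 0.44 and 0.28 without it. Dnah7c, Dnah9 and Ccdc39 were at 0.70, 0.51 and 0.40 with the library and at 0.25, 0.26 and 0.16 without it.

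Foxj1 was at 7.12, 7.26 and 9.33 CPM in dKO females and 8.73 and 15.01 CPM in dKO males at day 10, against 6.97, 7.56 and 10.1 CPM in WT. The groups overlapped apart from dKO male replicate 2, and the log2 change was 0.31 ± 0.15 (adjusted p = 0.199) with it and 0.08 ± 0.15 (adjusted p = 0.885) without it. Of the wider 84 motile cilia genes tested, 3 were called higher and 0 lower at day 10 with all libraries (median 0.28), and 0 of 85 without that library (median 0.10). With all libraries, 3.23% of all genes tested were called higher and 1.76% lower. Within a sex, edgeR called 0 of 59 genes at day 10, with 8 in females and 24 in males at an unadjusted p under 0.05. Over all genes, edgeR called 0.319% in females (0.143% higher and 0.175% lower) and 0.0139% in males (0.00923% higher and 0.00462% lower). DESeq2 called 0 of the 59 in females and 4 in males, and its shares over all genes are not given here. Without dKO male replicate 2 edgeR also called 0 in males.

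**Figure D4:**
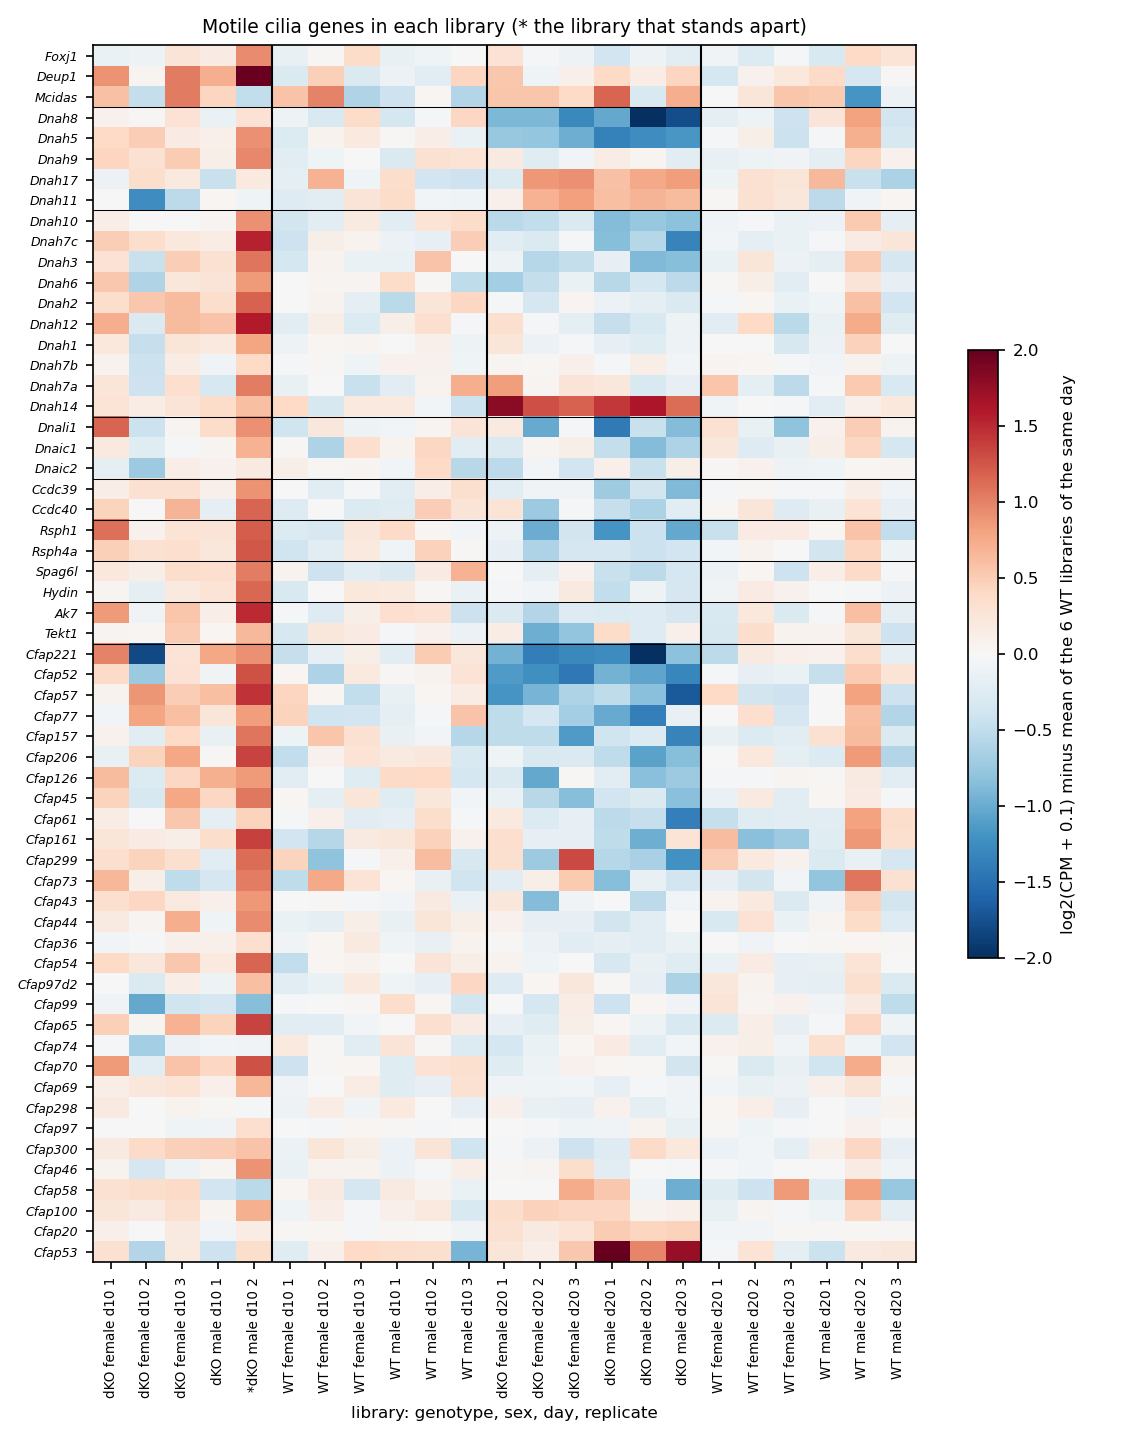
Each cell is the log2(CPM + 0.1) of 1 gene in 1 library minus the mean of the 6 WT libraries of the same day, for 59 motile cilia genes in rows by role and 23 libraries in columns, with colours limited at 2 in either direction. The column marked with a star, dKO male day 10 replicate 2, is the highest of its day for 45 genes, and WT male day 20 replicate 2 is the highest of its day for 37.

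The genotype by day interaction asks whether the difference between dKO and WT at day 20 differs from that at day 10. It called 4 of 59 genes higher, beside 13.6% of all genes, and 31 lower, beside 14.7% of all (28.3% in either direction), with a median of -0.63. Without dKO male day 10 replicate 2 it called 4 higher, beside 11.3% of all, and 13 lower, beside 10.4% of all (21.7% in either direction), with a median of -0.40. The 4 higher were Dnah14, Cfap53, Dnah11 and Cfap20 with and without it. Dnah5 had the smallest p: in dKO it had 3.12 to 4.74 CPM at day 20, against 11.4, 12.2, 9.70, 9.23 and 16.3 CPM at day 10, while in WT it had 6.00 to 13.3 CPM at day 20, against 7.10 to 9.83 CPM at day 10. The days did not overlap in dKO and did in WT. The interaction of Dnah5 was -1.53 ± 0.23 (adjusted p = 7.17e-05) with the library and -1.28 ± 0.22 (adjusted p = 0.000292) without it. Dnah8 was at -1.54 ± 0.32 with it and -1.41 ± 0.34 (adjusted p = 0.00477) without it, and Cfap57 at -1.89 ± 0.39 with it and -1.62 ± 0.40 (adjusted p = 0.00536) without it. Ccdc39 was at -0.78 ± 0.16 with the library and -0.54 ± 0.13 (adjusted p = 0.00522) without it. In Dnah14 the interaction was 1.19 ± 0.24 with the library and 1.28 ± 0.27 (adjusted p = 0.00158) without it.

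Between day 10 and day 20 in WT, 8 of 59 genes were called higher at day 20, beside 25.5% of all genes, and 7 lower, beside 24.9% of all (50.4% in either direction), with a median log2 change of 0.05. The higher count was 13 without dKO male day 10 replicate 1, a library outside the contrast whose loss also changes the filter, the scaling and the estimated spread, and the lower count was 4 without WT female day 20 replicate 3. Shares over all genes in these refits are not given here. Foxj1 rose, at 14.4 ± 2.96 CPM at day 20 and 7.84 ± 1.16 CPM at day 10 (0.87 ± 0.14, adjusted p = 1.5e-05), with no overlap between the days. Mcidas fell by 1.76 ± 0.45 on the log2 scale (adjusted p = 0.00222), to 0.142 ± 0.0857 CPM at day 20, against 0.570 ± 0.327 CPM at day 10. Cfap74, of the central apparatus, rose by 1.005 ± 0.125 (adjusted p = 9.26e-07), Cfap157 by 0.92 ± 0.25, Dnah11 by 0.91 ± 0.17 and Cfap46 by 0.47 ± 0.11. Cfap58, known from sperm flagella, fell by 1.93 ± 0.29 (adjusted p = 8.06e-06), Cfap61, of a radial spoke complex, by 0.88 ± 0.18, Cfap43 by 0.46 ± 0.17, Spag6l by 0.43 ± 0.15 and Cfap20 by 0.33 ± 0.05. Proliferation markers, for comparison, were lower at day 20 in 10 of 10.

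In dKO, 7 of 59 genes were called higher at day 20 than at day 10, beside 30.4% of all genes, and 37 lower, beside 31.2% of all (61.6% in either direction), with a median of -0.72. Without dKO male day 10 replicate 2 the counts were 9 higher, beside 27.5% of all, and 25 lower, beside 27.8% of all (55.3% in either direction), with a median of -0.42. Foxj1 averaged 13.5 ± 2.23 CPM at day 20 and 9.49 ± 3.23 CPM at day 10 in dKO, or 8.11 ± 1.09 CPM at day 10 without that library. Cfap20 averaged 34.8 ± 3.02 CPM at day 20 and 35.8 ± 2.42 CPM at day 10 in dKO (35.3 ± 2.49 CPM without that library), while in WT it was lower at day 20 (27.0 ± 0.708 CPM) than at day 10 (33.9 ± 0.906 CPM). Dnah11 was higher at day 20 in both genotypes, at 49.1 ± 7.52 CPM against 13.7 ± 4.32 CPM at day 10 in dKO (13.2 ± 4.8 CPM without that library), and at 32.8 ± 6.16 CPM against 17.1 ± 3.15 CPM at day 10 in WT.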

How the data were processed

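The authors deposited raw counts of reads per gene for each of 24 libraries, in unstranded, forward and reverse columns, of which the reverse column (column 4) was used. STAR 2.5.2b, HTSeq and the build GRCm38.p5 are named, per the submitters' processing notes, while for counting and annotation they name no further detail. Library preparation was TruSeq Stranded mRNA, per the labels' protocols. Of 50686 gene identifiers 50462 matched GENCODE M21, which gave symbols, types and positions. Entries that name no gene were left out of library sizes. Reads in the no-feature entry were 41.7% to 47.5% of the entries' total in the 23 libraries used.

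Libraries under 1000000 gene counts were left out (1 library). The filterByExpr function of edgeR 4.0.16 (R 4.3.3) removed low genes, TMM factors scaled the libraries, and a robust glmQLFit took 8 groups of genotype, sex and day. Contrasts were tested by glmQLFTest, two-sided, with Benjamini-Hochberg adjustment over all genes tested in each of 11 comparisons and calls at an adjusted p under 0.05. The test was also run on simulated data. CPM are TMM-scaled. The members, the 18 gene lists and the tests were chosen with earlier results of these data known.

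Named genes were the 11 members given by symbol, up to 8 rises and 8 falls per day among called genes of at least 0.5 CPM, up to 5 for the change between days in WT and for each interaction, up to 4 per list, Pank1 and Pank2, and the 5 highest per kilobase. Not every listed gene that the rule names is described. The fits were repeated in DESeq2 1.42.0 and limma-voom (limma 3.58.1), with RLE size factors, without a filter, with a minimum mean of 1 CPM, on the unstranded column, on all 24 libraries, on the compared groups alone, and without each of 23 libraries in turn. Each SD is a spread among libraries, and each SE comes from the fit, which uses the estimated spread among libraries.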

Additional observations from a re-analysis of the deposited data

Results flagged for a closer look

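Library values were examined in 132 groups of samples, 4 groups for each of 33 named genes. For independent groups, chance gives about 1 in 20. These groups share libraries, and some genes were named for day 10 calls that used dKO male day 10 replicate 2. That rate is therefore no reference here. A highest or lowest library far from the rest was found in 18 groups. Of these, 10 were the high value of dKO male day 10 replicate 2 among the dKO day 10 libraries: Ccdc39 at 36.6 CPM, Cfap46 at 16.4, Cfap54 at 23.2, Dnah10 at 11.6, Dnah2 at 14.8, Dnah7c at 9.71, Foxj1 at 15.01, Hydin at 15.3, Rsph4a at 8.70 and Spag6l at 12.5 CPM. In WT at day 20, male replicate 2 was the high library for Cfap46 at 13.5, Dnah10 at 9.71 and Dnah2 at 8.03 CPM. The other 5 were spread over 5 libraries. The low values were Ak7 at 1.86 CPM in dKO female day 20 replicate 2, Cfap52 at 0.848 CPM in WT female day 10 replicate 2, Cfap74 at 7.26 CPM in dKO female day 10 replicate 2 and Dnah11 at 34.7 CPM in dKO female day 20 replicate 1. The high value was Foxj1 at 10.1 CPM in WT female day 10 replicate 3.

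By the interaction test with all libraries, the difference between dKO and WT changed between the days for 25 of the 33 named genes. This stands beside 28.3% of all genes tested. Some of the 33 were named for their calls in these same data, some of them for the smallest interaction p. A high count was therefore built in. Without dKO male day 10 replicate 2, 15 of the 25 were called and 10 were not. The 10, with their values without that library, were Dnah12 at -0.65, Cfap157 at -0.63, Ak7 at -0.61, Deup1 at -0.60, Dnah2 at -0.59, Spag6l at -0.52, Cfap54 at -0.41, Ccdc40 at -0.40, Dnah9 at -0.27 and Hydin at -0.26. With all libraries the interaction, on the log2 scale, was positive for Dnah14 at 1.19, Cfap53 at 1.17, Dnah11 at 0.88 and Cfap20 at 0.29. Among dynein heavy chains it was negative for Dnah8 at -1.54, Dnah5 at -1.53, Dnah7c at -1.25, Dnah12 at -0.97, Dnah10 at -0.94, Dnah2 at -0.85 and Dnah9 at -0.53. Among Cfap genes it was negative for Cfap57 at -1.89, Cfap52 at -1.74, Cfap126 at -1.11, Cfap157 at -1.07, Cfap65 at -0.84 and Cfap54 at -0.70. For the remaining genes it was negative, with Rsph1 at -1.39, Ak7 at -1.06, Deup1 at -1.01, Rsph4a at -0.97, Ccdc40 at -0.84, Ccdc39 at -0.78, Spag6l at -0.73 and Hydin at -0.53. Over all 59 genes the lower interaction calls numbered 31 with dKO male day 10 replicate 2 and 13 without it.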

How the results depend on the processing

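Across 8 alternative settings, 117 of 126 counts of called motile cilia genes stayed within 1.5 times the reported one. The exceptions were, at day 10, 16 higher in DESeq2 and 0 with only the groups compared, and in day 10 males 3 without a filter and 4 in DESeq2. At day 20 there were 7 higher with the unstranded column, and in females 2 with the unstranded column, 2 in limma-voom and 7 with only the groups compared. The genotype by sex interaction at day 20 gave 4 with only the groups compared. Dnah10 at day 20 reversed to 0.39 with the unstranded column (adjusted p = 0.0152).

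Leaving out each library in turn gave, for dKO against WT, 4 to 5 higher and 8 to 16 lower at day 20, 2 to 4 in day 20 females, 12 to 20 in day 20 males, 0 to 29 higher and 0 to 1 lower at day 10, 0 in day 10 females and 0 to 30 in day 10 males. The interaction with day gave 3 to 4 higher and 13 to 38 lower, and that with sex 0 to 1 at day 20 and 0 to 6 at day 10. Day 20 against day 10 gave 5 to 9 higher and 25 to 41 lower in dKO, and 6 to 13 higher and 4 to 9 lower in WT. The values of 29, 30, 6 and 13 came without dKO male day 10 replicate 1, which leaves replicate 2 alone in its group, and that of 13 lower interactions without replicate 2. Except for fits without dKO male day 10 replicate 2, these counts stand without the shares over all genes in the same refits. Where the cause of a change is not given, the cause was not tested. Genes under 1 CPM rest on few counts, and differences of their size are not firmly measured at this depth. No paired analysis was possible because the labels give no replicate numbers, and those used here only name libraries in the order of deposit.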
